A study of Homo sapiens with 9 samples.

Results

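The genes described here are 40 members of ribosome biogenesis and of the nucleolus, chosen by symbol from a fixed list that uses no expression value of these libraries, although the list was drawn up with other results of these data known. All 40 were found once each among the 34961 genes of the deposited table, and all 40 passed the filter on low counts that left 20156 genes to test. The RNA came from WA09, a human embryonic stem cell line also called H9, in which an EGFP reporter had been knocked in at TPH2, the gene of the neuronal tryptophan hydroxylase. All 9 libraries carry this knock-in and all are labelled as undergoing induced differentiation to serotonin neurons. Of these, 3 are labelled embryonic stem cells (Day0), 3 neural progenitor cells (Day21) and 3 TPH2-positive serotonin neurons (Day42). A single line was used. Whether the Day42 cells were sorted is not stated in the labels. Neither is it stated that replicates of a day were separate differentiations, and p-values therefore measure only the spread among these libraries, which can be technical.

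Ribosomes are built in the nucleolus, where RNA polymerase I transcribes the large precursor of the ribosomal RNAs. Small nucleolar ribonucleoproteins modify this precursor, box C/D particles by ribose methylation and box H/ACA particles by pseudouridylation, and separate sets of assembly factors fold and cut the RNA of the small and the large subunit. The MYC proteins are transcription factors that bind many genes of this pathway, and growing stem cells are known for large, active nucleoli.

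Total counts per library ran from 58526466 to 69658328, and each library's depth was therefore similar, but the number of genes with a count was not. Between 22198 and 24741 genes had a count above 0 in the Day0 and Day21 libraries, against 16077, 17101 and 10797 in replicates 1, 2 and 3 of Day42, and results that rest on Day42 replicate 3 are given without it as well. Counts piled up at multiples of 4 (7999 counts of 4, against 3658 of 3 and 3700 of 5), so a count is not 1 independent molecule and a count of 0 was taken to allow up to 12 counts. Markers of the labelled cells followed the days. The summed level of 7 pluripotency genes was 1036 to 1793 CPM on Day0, 96.1 to 128 CPM on Day21 and 0.0830 to 5.62 CPM on Day42, where NANOG, TDGF1 and ZFP42 were at 0 in every library. CPM are counts relative to the library total, adjusted by TMM scaling factors. The factors were 0.763 to 0.942 in the Day0 libraries, 0.824 to 1.04 on Day21 and 1.21 to 1.39 on Day42. Levels are divided by them, which lowers those of Day42 against the earlier days. The sum of 7 neural progenitor genes was highest on Day21 (1245 to 1403 CPM), and the sums of 7 neuronal and 8 serotonin neuron genes were highest on Day42 (4173 to 5214 CPM and 1117 to 1348 CPM), although the serotonin transporter SLC6A4 was at 0 there. The nucleolar markers NCL, FBL and GPATCH4 summed to 845 to 1337 CPM on Day0, 456 to 658 CPM on Day21 and 76.4 to 180 CPM on Day42, and FBL held 11 counts in Day42 replicate 3, which a count of 0 would allow.

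The promoters of the genes were searched for CACGTG, the E-box that MYC and its partner MAX bind, because MYC genes stand among the 40. RefSeq promoter windows on GRCh38, from 250 bases before to 50 bases after an annotated start, were found for 34 of the 40 genes, 43 windows in all. The motif reads the same on both strands and was the only one searched. It lay in at least 1 window of 15 of the 34 genes (44.1%), against 8.77% of all 27305 genes with a window. By window, 16 of 43 (37.2%) held it, against 7.26% of all 35116 windows. Neither background was limited to genes with counts in these libraries or matched for base composition. Of the 17 matches, 15 began between 70 bases before and 50 bases after the start, and the other 2, in EBNA1BP2 and NOP10, began 237 and 170 bases before it. Positions of the matches in all other windows were not counted, so these have no background. The following 30-base stretches show the motif, in capitals, in the 7 of these 15 genes that were called lower on Day42 than on Day0, and in UTP4, whose Day42 level overlapped its Day0 level.
FBL: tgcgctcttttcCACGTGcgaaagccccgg
RRP9: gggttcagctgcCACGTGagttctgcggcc
LYAR: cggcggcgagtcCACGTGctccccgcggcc
GAR1: gggccagaggggCACGTGgcgccggtgagt
NOP10: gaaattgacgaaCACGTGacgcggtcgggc
GNL3: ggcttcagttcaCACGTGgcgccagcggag
MRTO4: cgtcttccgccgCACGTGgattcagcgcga
UTP4: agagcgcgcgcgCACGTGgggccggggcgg
They are written 5′ to 3′ on the strand of the gene. On GRCh38 they lie at chr19:39846356-39846385 (− strand) for FBL, chr3:51941892-51941921 (− strand) for RRP9, chr4:4290068-4290097 (− strand) for LYAR and chr4:109815781-109815810 (+ strand) for GAR1. Those of NOP10, GNL3, MRTO4 and UTP4 lie at chr15:34343130-34343159 (− strand), chr3:52686026-52686055 (+ strand), chr1:19251807-19251836 (+ strand) and chr16:69132621-69132650 (+ strand). NOP10 holds a second match further upstream. A match is a run of letters, not a measured binding site.

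**Figure D1:**
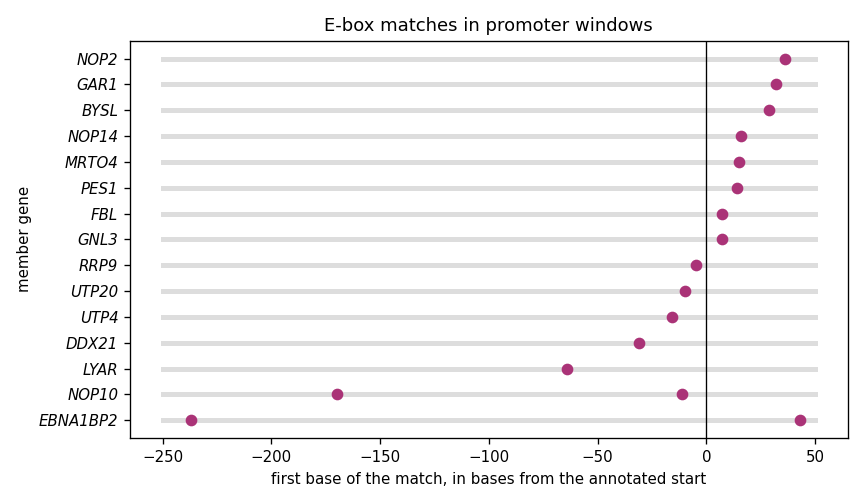
Positions of the CACGTG matches in the RefSeq promoter windows of the 15 genes that hold at least 1. The x axis gives the first base of the match in bases from the annotated start, grey lines span the window from 250 bases before to 50 after the start, and each point is 1 match. Of the 17 points, 15 lie between 70 bases before and 50 after a start.

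Taken as a sum, the 40 genes took up a smaller share of the counts at each later day. Their summed counts were 0.904%, 1.03% and 0.882% of all counts in replicates 1, 2 and 3 of Day0. On Day21 they were 0.477%, 0.473% and 0.514%, and on Day42 0.346%, 0.343% and 0.372%. The libraries of the 3 days did not overlap, with means of 0.940 ± 0.0813%, 0.488 ± 0.0226% and 0.354 ± 0.0160% (SD, n = 3 each). Between 3 libraries and 3, an exact permutation test cannot give a two-sided p below 0.10, so none is given. The most abundant genes weigh most in this sum. In Day0 replicate 1, NPM1, NOP10 and NHP2 stood at 2571, 2252 and 1335 CPM, out of 11849 CPM for the 40 together. In bulk RNA, fewer cells of a type and less RNA per cell cannot be told apart.

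**Figure D2:**
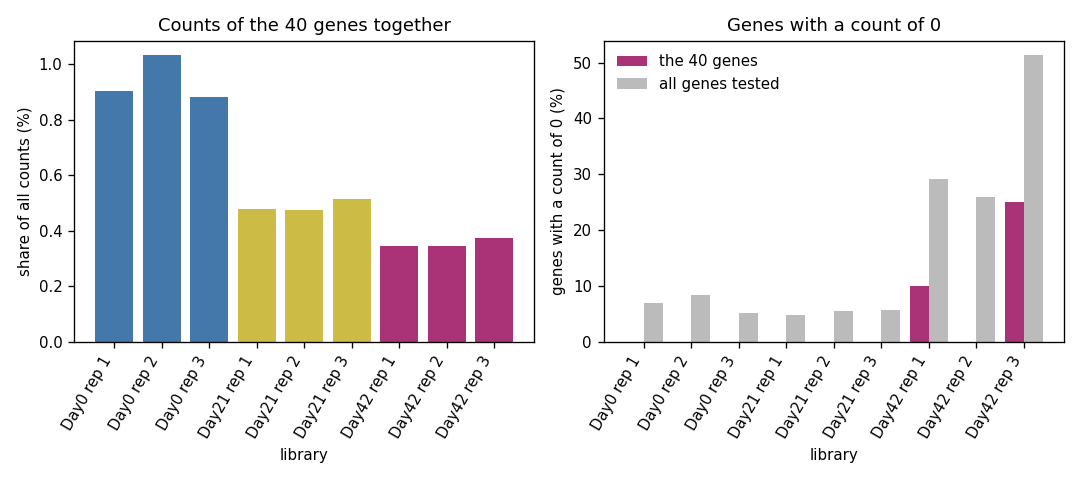
Share of all counts held by the 40 genes together (left, in percent) and percent of genes at 0 counts (right) for the 40 genes and for all 20156 genes tested, in each of the 9 libraries. Bars start at 0, the share falls from 0.882% or more on Day0 to 0.372% or less on Day42, and only Day42 replicates 1 and 3 have members at 0.

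From Day0 to Day21 the fitted change was negative for 40 of the 40 genes, with a median log2 change of −1.10 against 0.030 over all genes tested. A gene was called at an adjusted p under 0.05 in edgeR's quasi-likelihood test, with Benjamini-Hochberg adjustment over all genes tested, and a log2 change of at least 1. Only NPM1 and GPATCH4 were called lower, 2 of 40, where 1.18% of all genes tested were called lower. None was called higher, where 1.32% of all genes were, and 11 of the 40 had an unadjusted p under 0.05 by edgeR, as did 3398 of the 20156 genes tested. In 30 of the 40 the 3 Day21 libraries all lay below the 3 Day0 libraries (22.2% of all genes), and in none did they all lie above (24.7%). The count of calls changed with the libraries in the model. With only the 2 days in the model 21 were called lower (12.6% of all genes), without Day42 replicate 3 there were 16 (6.69%), and without Day42 replicate 2 there were 4 (2.59%). The 14 genes called in addition without Day42 replicate 3 were NPM3, NOLC1, DDX21, LYAR, NOP58, RRP9, DKC1, UTP4, NOB1, TSR1, NOP16, WDR12, PPAN and NIP7. There were 0 without Day0 replicate 1 (0.219%) or Day21 replicate 1 or 2 (0.257% and 0.196%), and 1 without Day21 replicate 3 (0.247%).

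From Day21 to Day42, 10 of the 40 genes were called lower, where 19.7% of all genes tested were, and 1, MYC, was called higher, where 6.52% were. The median change of the 40 was −1.32, against −0.54 over all genes tested, and 32 were negative. These medians lay closer in some other fits, for example at −1.26 and −0.94 by DESeq2, as given further below. In 22 genes the 3 Day42 libraries lay below the 3 Day21 libraries (34.7% of all genes) and in 3 they lay above (11.1%). Leaving out Day42 replicate 3 raised the lower calls to 18 (22.3% of all genes), and leaving out Day21 replicate 1, 2 or 3 gave 6, 5 and 6 (13.5%, 12.5% and 12.8%).

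Over the whole course, from Day0 to Day42, 16 of the 40 genes were called lower (23.4% of all genes tested) and none higher (8.82%). None is edgeR's count at the adjusted threshold: of the 2 genes with a positive fitted change, MYC and POLR1B, neither had an unadjusted p under 0.05. The median change was −2.49 against −0.57 over all genes tested. Both rest on TMM scaling, whose factors were highest on Day42. By limma on log2(FPKM + 1), which takes no TMM factor, the medians were −1.74 for 38 members and 0.045 for 10619 genes. In 27 genes the Day42 libraries all lay below the Day0 libraries (34.1% of all genes), and in 1, MYC, they all lay above (11.4%). Without Day42 replicate 3 the lower calls rose to 25 (25.9% of all genes). The 3 comparisons share libraries, so a gene called in 2 of them was not called independently. Across the 3 comparisons 17 genes were called at least once, GPATCH4 and NPM1 were called lower in each, and 23 were called in none. The matching shares of all genes tested are not given, so these counts cannot be set against a background.

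**Figure D3:**
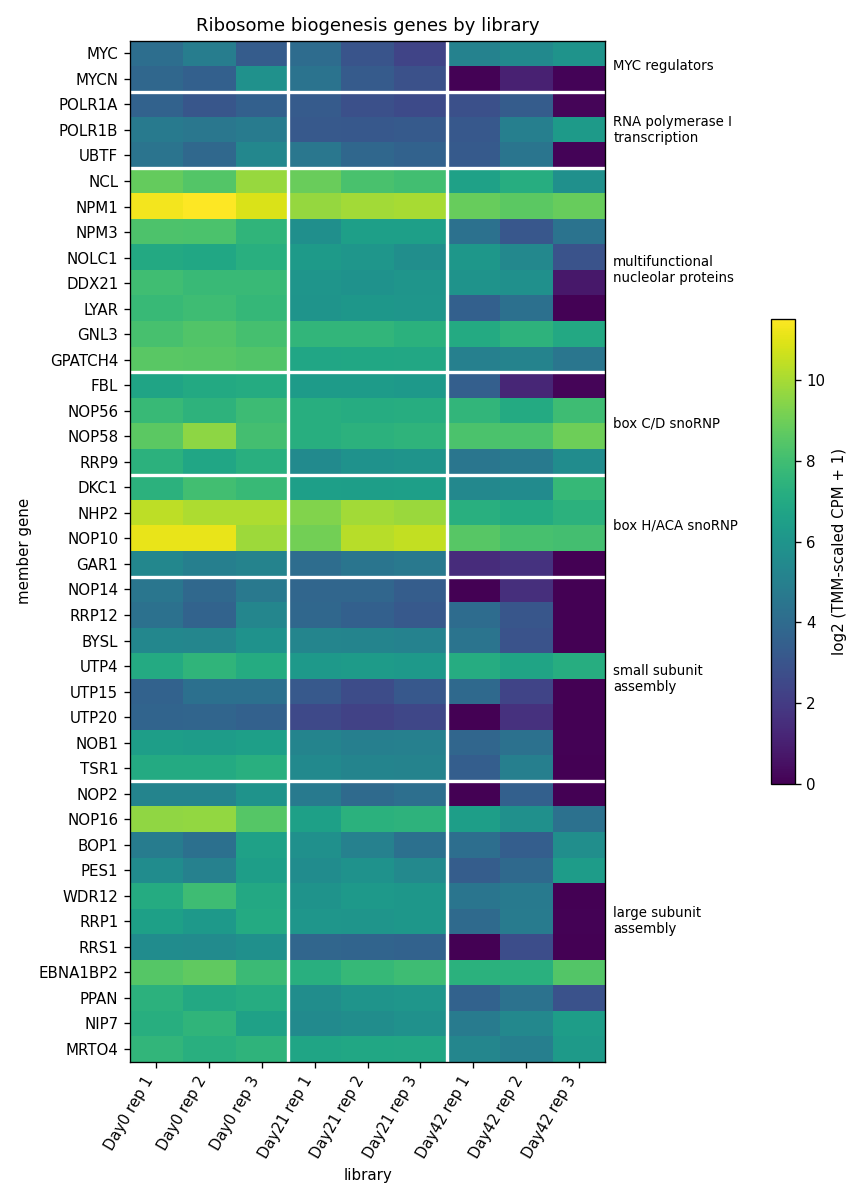
Level of each of the 40 genes (rows, grouped by role) in each of the 9 libraries (columns), as log2 of TMM-scaled CPM plus 1. Most rows darken from Day0 to Day42, and the 10 genes at 0 in Day42 replicate 3 are among the darkest cells of the last column.

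**Figure D4:**
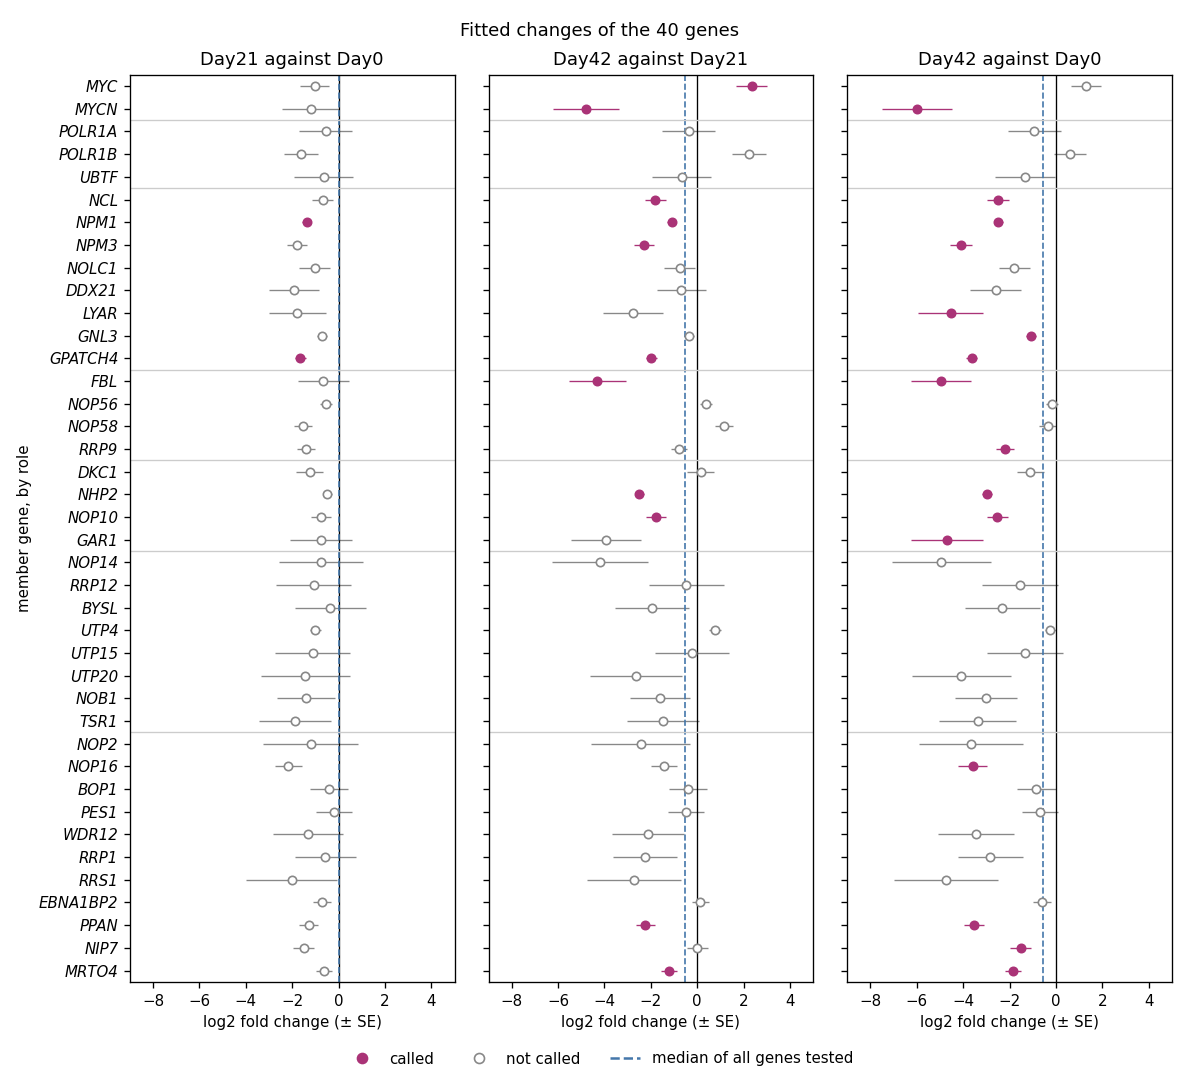
Fitted log2 fold change (x axis, ± SE) of each of the 40 genes in the 3 comparisons, grouped by role on the y axis. Filled points were called and open points were not, and the dashed line is the median of all genes tested (0.030, −0.54 and −0.57). In the left panel all 40 points lie below 0, and in the right panel all but MYC and POLR1B do.

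The MYC genes among the 40, transcription factors that bind genes of the pathway, were called in opposite directions on Day42 against Day21. MYC (ENSG00000136997) stood at 16.9, 28.8 and 9.18 CPM on Day0, at 15.7, 7.07 and 4.14 CPM on Day21 and at 33.4, 42.8 and 60.4 CPM on Day42. The 3 Day42 libraries lay above all 6 of the earlier days, which overlapped one another. MYC rose by 2.35 ± 0.66 from Day21 to Day42, 5.08-fold (adjusted p = 0.0317 by edgeR), and its change from Day0 was 1.31 ± 0.64, adjusted p = 0.16 by edgeR. The MYC call did not hold in 6 of 18 alternatives (range of adjusted p 0.0022 to 0.121), which include leaving out Day0 replicate 1 or Day21 replicate 2 or 3 (adjusted p = 0.0597, 0.121 and 0.108 by edgeR). MYCN (ENSG00000134323, chromosome 2, 15940550 to 15947007), the paralog active in the developing nervous system, stood at 13.5, 10.7 and 55.4 CPM on Day0, at 19.7, 8.84 and 6.24 CPM on Day21 and at 0.0512, 1.11 and 0.0712 CPM on Day42. Its Day42 libraries all lay below the others, and those of replicates 1 and 3 held 4 and 6 counts, under the 12 that a count of 0 allows. MYCN fell by 4.81 ± 1.43 from Day21 (adjusted p = 0.0382 by edgeR) and by 6.01 ± 1.51 from Day0 (adjusted p = 0.0165 by edgeR). The first MYCN call did not hold in 9 of 18 alternatives (range of adjusted p 0.000892 to 0.115), which include leaving out Day0 replicate 1 or 2 or Day21 replicate 1, 2 or 3 or Day42 replicate 1 (adjusted p between 0.054 and 0.101 by edgeR). The second MYCN call did not hold in 4 of 18 alternatives (range of adjusted p 1.34e-05 to 0.0659), which include leaving out Day0 replicate 3 (adjusted p = 0.0525 by edgeR). The first change was −7.46 without Day42 replicate 2 (adjusted p = 0.00534 by edgeR). MYCN overlaps MYCNOS on the other strand, and reads of the pair cannot be told apart because the counting's strand setting is unknown here. MYC was thus the only one of the 40 genes called higher in any comparison by edgeR with all 9 libraries. In other fits NOP58, POLR1B and UTP4 were also called higher on Day42 against Day21, in 6, 4 and 2 of 18 alternatives.

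Of 9 further genes of the MYC family and its partners, MYCL among them, 2 were called lower on Day42 against both earlier days and none was called on Day21. Against Day21 and Day0, 19.7% and 23.4% of all genes tested were called lower on Day42. MXD3, a repressor that competes with MYC for MAX, went from 66.0 ± 10.8 CPM on Day21 to 21 ± 5.87 CPM on Day42 (n = 3 each) and fell by 1.65 ± 0.32 (adjusted p = 0.00696 by edgeR). MXD4, a repressor of the same family, fell by 1.82 ± 0.42 to 20.5 ± 9.68 CPM (adjusted p = 0.0131 by edgeR). MAX itself, named after its values were seen, stood at 15.8, 27.4 and 16.7 CPM on Day0, at 12.7, 11 and 13.6 CPM on Day21 and at 20.5, 22.8 and 17.4 CPM on Day42. Its Day21 libraries lay below all others, and it was called in no comparison (adjusted p = 0.304 by edgeR for Day42 against Day21). The MXD4 call did not hold in 2 of 18 alternatives (range of adjusted p 0.00321 to 0.0545), which include leaving out Day21 replicate 2 (adjusted p = 0.0545 by edgeR). Its call against Day0 did not hold in 10 of 18 alternatives (range of adjusted p 0.0044 to 0.0972), which include leaving out Day0 replicate 1, 2 or 3 or Day21 replicate 1 or Day42 replicate 1 (adjusted p between 0.0507 and 0.0803 by edgeR). Without Day42 replicate 3, 2 of the 9 genes were also called higher on Day42 against Day21 and against Day0 (11.1% and 14.8% of all genes). The median change of the 9 genes from Day21 to Day42 was 0.70.

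Of 16 targets of MYC outside ribosome biogenesis, 1 was called lower on Day21 against Day0, 6 on Day42 against Day21 and 9 on Day42 against Day0, and none higher (1.18%, 19.7% and 23.4% of all genes tested were called lower). HSPE1, the mitochondrial chaperonin cofactor, stood at 3318, 3233 and 1709 CPM on Day0, at 762, 1789 and 1720.5 CPM on Day21 and at 271, 283 and 281 CPM on Day42. Its Day42 libraries lay below all others, and it fell by 2.35 ± 0.37 from Day21 (adjusted p = 0.00316 by edgeR). NME1, a nucleoside diphosphate kinase whose reads may be shared with the NME1-NME2 readthrough gene, fell by 2.76 ± 0.33 from 1669.5 ± 444 CPM to 246 ± 94.8 CPM (adjusted p = 0.00121 by edgeR). TERT, the catalytic subunit of telomerase, was called lower on Day42 than on Day0 (adjusted p = 0.0441 by edgeR). Its levels were 0.515, 0.399 and 2.28 CPM on Day0 and 0.0384, 0 and 0 CPM on Day42, the latter below what a count of 0 can stand for, so no fold is given. The TERT call did not hold in 11 of 16 alternatives (range of adjusted p 0.00144 to 0.299), which include leaving out Day0 replicate 1, 2 or 3 or Day21 replicate 1 or 2 or Day42 replicate 2 or 3 (adjusted p between 0.0659 and 0.122 by edgeR). The HSPE1 and NME1 calls held in all 18. ODC1, a textbook MYC target in polyamine synthesis named after its values were seen, was at 83.9 ± 12.3, 182 ± 31.9 and 159 ± 76.4 CPM on the 3 days. By edgeR with all 9 libraries ODC1 was called in no comparison, while voom with sample quality weights called it higher on Day21 and Day42 against Day0. It was also called higher on Day21 and on Day42 against Day0 by edgeR without Day42 replicate 3, at 1.11 (adjusted p = 0.0172 by edgeR) and 1.26 (adjusted p = 0.00481 by edgeR). No other gene of the 16 was called higher without that library.

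The 3 genes of RNA polymerase I transcription among the 40 were called in no comparison. POLR1B, the second largest subunit of the enzyme, stood at 25.8, 22.7 and 27.0 CPM on Day0, at 8.21, 7.94 and 8.50 CPM on Day21 and at 7.89, 30.1 and 77.3 CPM on Day42. The Day21 libraries lay below those of Day0, while the Day42 libraries spread over both, with replicate 3 the highest of all 9. Its change from Day21 to Day42 was 2.22 ± 0.73, adjusted p = 0.0554 by edgeR, and from Day0 it was 0.61 ± 0.70, which without Day42 replicate 3 became 1.21 (adjusted p = 0.0913 by edgeR) and −0.41 (adjusted p = 0.541 by edgeR). Without Day42 replicate 1 it was called higher on Day42 than on Day21, at 2.79 (adjusted p = 0.00756 by edgeR). UBTF, which opens the ribosomal RNA genes for the polymerase, stood at 20.6, 14.0 and 39.9 CPM on Day0, at 22.7, 13.5 and 11.4 CPM on Day21 and at 8.69, 21 and 0.0949 CPM on Day42. The days overlapped, and Day42 replicate 3 held 8 counts of UBTF. Its change from Day0 to Day42 was −1.32 ± 1.29, adjusted p = 0.498 by edgeR, and −0.75 without that library. POLR1A, the largest subunit, changed by −0.93 ± 1.15 between the same days (adjusted p = 0.608 by edgeR), with 10 counts in Day42 replicate 3 and a change of −0.36 without it. By edgeR, 1 of these 3 genes had an unadjusted p under 0.05 on Day42 against Day21, and none in the other comparisons. Among 13 further factors of this machinery, none was called on Day21 against Day0 by edgeR (3 had an unadjusted p under 0.05). RRN3, which makes the polymerase competent to start, rose by 1.95 ± 0.34 from 18.4 ± 1.2 CPM on Day21 to 71.2 ± 15.5 CPM on Day42 (adjusted p = 0.00438 by edgeR). CD3EAP, also called POLR1G, and POLR1D, both subunits, fell by 2.61 ± 0.66 and 1.18 ± 0.34 from Day0 to Day42 (adjusted p = 0.0164 and 0.0283 by edgeR). The CD3EAP call did not hold in 3 of 18 alternatives (range of adjusted p 0.00238 to 0.0691), which include leaving out Day0 replicate 3 or Day42 replicate 1 (adjusted p = 0.0691 and 0.0511 by edgeR). The POLR1D call did not hold in 11 of 18 alternatives (range of adjusted p 0.0129 to 0.331), which include leaving out Day0 replicate 1 or 2 or Day21 replicate 2 or 3 or Day42 replicate 1 (adjusted p between 0.0532 and 0.118 by edgeR). Both RRN3 calls, against Day21 and Day0, held in all 18. Without Day42 replicate 3 the lower calls among the 13 were 3, 2 and 5 in Day21 against Day0, Day42 against Day21 and Day42 against Day0 (6.69%, 22.3% and 25.9% of all genes).

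The 8 multifunctional nucleolar proteins held both calls of Day21, with 2, 4 and 6 genes lower in Day21 against Day0, Day42 against Day21 and Day42 against Day0, and no gene higher. The shares of all genes tested called lower were 1.18%, 19.7% and 23.4%. The lower calls were 6, 5 and 7 without Day42 replicate 3 (6.69%, 22.3% and 25.9% of all genes). GPATCH4 (ENSG00000160818, chromosome 1, 156594301 to 156601496), a nucleolar G-patch protein, stood at 385, 373 and 336 CPM on Day0, at 112, 114 and 121 CPM on Day21 and at 31.7, 34.6 and 21.7 CPM on Day42. The 3 days did not overlap, each library of a later day lying below every library of the day before. GPATCH4 fell by 1.66 ± 0.23 from Day0 to Day21 (adjusted p = 0.0099 by edgeR), by 1.98 ± 0.23 from Day21 to Day42 (adjusted p = 0.00116 by edgeR), and by 3.64 ± 0.25 or 12.4-fold in all (adjusted p = 0.00011 by edgeR). The GPATCH4 call of Day21 against Day0 did not hold in 5 of 18 alternatives (range of adjusted p 2.91e-06 to 0.0766), which include leaving out Day0 replicate 1 or Day21 replicate 1, 2 or 3 (adjusted p = 0.0727, 0.0504, 0.0722 and 0.0659 by edgeR). Both of its Day42 calls held in all 18 alternatives.

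NPM1, nucleophosmin, a chaperone of the outer nucleolus named after its values were seen, showed the same order at a higher level. It stood at 2571, 2941 and 1882 CPM on Day0, at 828, 975 and 1040.1 CPM on Day21 and at 465, 398 and 463 CPM on Day42. Again no library of a later day reached the level of an earlier one. NPM1 fell by 1.38 ± 0.20 in the first step (adjusted p = 0.0107 by edgeR), by 1.10 ± 0.20 in the second (adjusted p = 0.00459 by edgeR), and 5.57-fold in all (adjusted p = 0.000177 by edgeR). The NPM1 call of the first step did not hold in 4 of 18 alternatives (range of adjusted p 1.99e-05 to 0.0911), which include leaving out Day0 replicate 1 or Day21 replicate 1 or 2 (adjusted p = 0.0582, 0.0572 and 0.0629 by edgeR). That of the second step did not hold in 3 of 18 alternatives (range of adjusted p 0.00415 to 0.0698), which include leaving out Day42 replicate 2 (adjusted p = 0.0156 by edgeR, with a log2 change of −0.97, short of the threshold of 1). GENCODE lists 45 pseudogenes named after NPM1, and near-identical copies could divide its reads, which leaves its level uncertain.

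NCL (ENSG00000115053, chromosome 2, 231453531 to 231483641), nucleolin, which binds nascent ribosomal RNA, stood at 446, 347 and 864 CPM on Day0, at 467, 298 and 261 CPM on Day21 and at 95.1, 144 and 54.6 CPM on Day42. Day0 and Day21 overlapped, with Day0 replicate 3 the highest, and the Day42 libraries lay below both. NCL fell by 1.81 ± 0.47 from Day21 to Day42 (adjusted p = 0.0217 by edgeR) and 5.65-fold from Day0 (adjusted p = 0.00499 by edgeR), and its change on Day21 was −0.69 ± 0.45, adjusted p = 0.561 by edgeR. The NCL call of Day42 against Day21 did not hold in 7 of 18 alternatives (range of adjusted p 0.014 to 0.109), which include leaving out Day21 replicate 1 or 2 or Day42 replicate 1 (adjusted p = 0.0765, 0.0514 and 0.0567 by edgeR). NPM3, a nucleoplasmin relative that binds NPM1, stood at 318, 304 and 183 CPM on Day0, at 52.5, 89.0 and 90.4 CPM on Day21 and at 18.9, 7.75 and 20.2 CPM on Day42. Its days did not overlap either. NPM3 fell by 2.31 ± 0.44 from Day21 to Day42 (adjusted p = 0.00618 by edgeR) and 17.2-fold from Day0 (adjusted p = 0.000725 by edgeR), and its change on Day21 just missed the threshold (−1.80 ± 0.43, adjusted p = 0.0545 by edgeR).

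LYAR, a nucleolar zinc finger protein of pre-ribosomal RNA processing, stood at 216, 246 and 201 CPM on Day0, at 60.7, 67.2 and 65.9 CPM on Day21 and at 10.6, 17.9 and 0.0475 CPM on Day42. Each day lay below the day before, and Day42 replicate 3 held 4 counts of it. LYAR was called on Day42 against Day0 alone, where it fell by 4.54 ± 1.40 (adjusted p = 0.0375 by edgeR). The LYAR call did not hold in 9 of 18 alternatives (range of adjusted p 9.3e-05 to 0.0996), which include leaving out Day0 replicate 1, 2 or 3 or Day21 replicate 1, 2 or 3 or Day42 replicate 1 (adjusted p between 0.0634 and 0.0837 by edgeR). GNL3, nucleostemin, a GTPase named for its abundance in stem cells and chosen here after its values were seen, fell by 1.06 ± 0.21 from 299 ± 31.6 to 143 ± 26.3 CPM (adjusted p = 0.00592 by edgeR). The GNL3 call did not hold in 6 of 18 alternatives (range of adjusted p 0.00417 to 0.218), which include leaving out Day0 replicate 2 or Day42 replicate 1 or 3 (adjusted p = 0.0218, 0.0206 and 0.00926 by edgeR, with a log2 change of −0.98, −0.97 and −0.98, short of the threshold of 1). The remaining 2, DDX21, an RNA helicase, and NOLC1, a chaperone of small nucleolar particles, changed by −2.60 ± 1.11 and −1.80 ± 0.67 from Day0 to Day42 without passing (adjusted p = 0.112 and 0.0755 by edgeR). Both were called lower without Day42 replicate 3, at −2.02 (adjusted p = 0.000256 by edgeR) and −1.30 (adjusted p = 0.0121 by edgeR). All 8 had Day42 libraries that lay wholly below those of Day0, as did 34.1% of all genes tested.

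**Figure D5:**
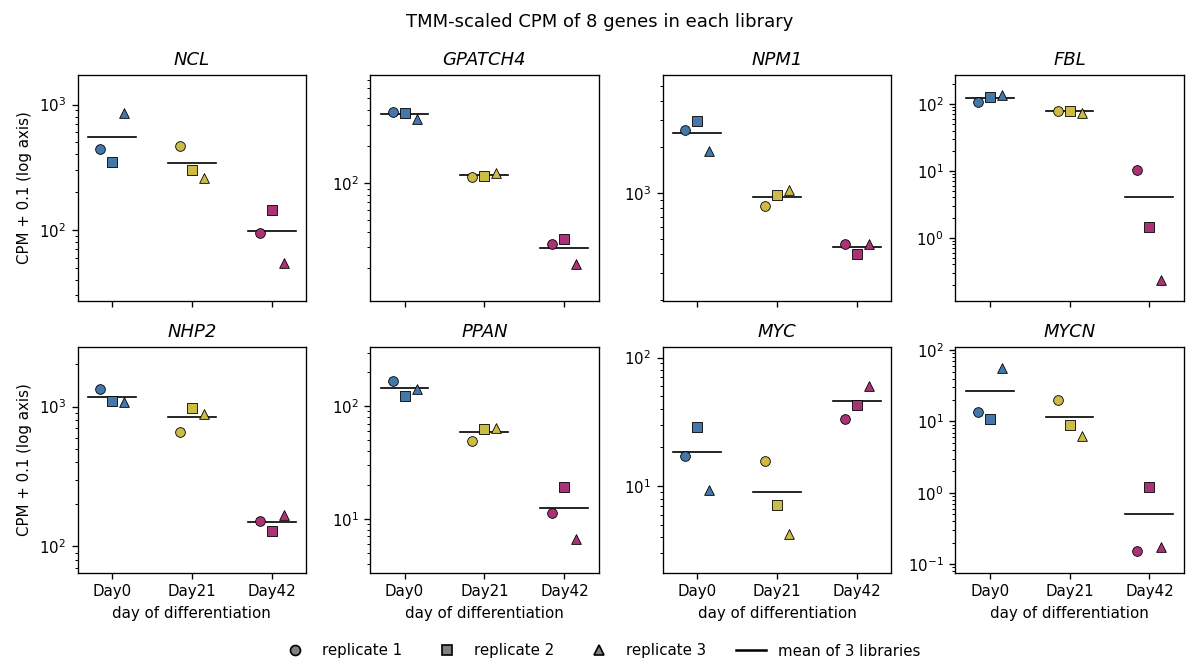
TMM-scaled CPM plus 0.1 (y axis, log scale) of 8 genes in each library by day, with 1 symbol per replicate and a bar at the mean of the 3 libraries. GPATCH4, NPM1, PPAN and FBL step down without overlap between days, NHP2 and NCL are lowest on Day42, and MYC and MYCN part on Day42.

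Of the 4 box C/D proteins, 2 were called lower on Day42 against Day0, 1 on Day42 against Day21 and none on Day21 against Day0 by edgeR (2 with an unadjusted p under 0.05). In the same order, 23.4%, 19.7% and 1.18% of all genes tested were called lower. The counts were 2, 2 and 2 without Day42 replicate 3 (25.9%, 22.3% and 6.69% of all genes). FBL (ENSG00000105202, chromosome 19, 39834458 to 39846379), fibrillarin, the methyltransferase of the particle, stood at 106, 125 and 136 CPM on Day0, at 79.1, 79.2 and 74.1 CPM on Day21 and at 10.3, 1.37 and 0.131 CPM on Day42. Its 3 Day21 libraries lay within a few CPM of each other and below Day0, while those of Day42 differed widely, and replicate 3 held 11 counts. FBL fell by 4.30 ± 1.24 from Day21 to Day42 (adjusted p = 0.0345 by edgeR) and by 4.96 ± 1.28 from Day0 (adjusted p = 0.0185 by edgeR). The FBL call of Day42 against Day21 did not hold in 9 of 18 alternatives (range of adjusted p 0.00107 to 0.0987), which include leaving out Day0 replicate 1, 2 or 3 or Day21 replicate 1, 2 or 3 or Day42 replicate 2 (adjusted p between 0.0576 and 0.078 by edgeR). Its change there was −6.67 without Day42 replicate 1. The FBL call of Day42 against Day0 did not hold in 1 of 18 alternatives (range of adjusted p 0.000177 to 0.058), namely only the 2 days compared. RRP9, which binds the U3 particle of early cleavage, stood at 169, 112 and 151 CPM on Day0, at 44.4, 58 and 60.5 CPM on Day21 and at 21.7, 25.4 and 47.6 CPM on Day42. Day21 and Day42 overlapped and both lay below Day0. RRP9 fell by 2.19 ± 0.38 over the whole course (adjusted p = 0.00333 by edgeR), and its change on Day21 was −1.41 ± 0.37, adjusted p = 0.0694 by edgeR.

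NOP56 and NOP58, the paired core proteins that hold fibrillarin in the particle, were named after their values were seen. NOP56 stood at 216, 174 and 237 CPM on Day0, at 149, 139 and 145 CPM on Day21 and at 189, 131 and 244 CPM on Day42. Day42 overlapped both earlier days, and its change from Day0 was −0.15 ± 0.26, adjusted p = 0.72 by edgeR. NOP58 stood at 395, 760.5 and 269 CPM on Day0, at 147, 168 and 180.2 CPM on Day21 and at 307, 306 and 496 CPM on Day42. Its Day42 libraries lay above all those of Day21 and within the range of Day0. The NOP58 change was −1.52 ± 0.39, adjusted p = 0.0626 by edgeR on Day21 against Day0, and 1.16 ± 0.38, adjusted p = 0.0554 by edgeR on Day42 against Day21. In 6 of 18 alternatives NOP58 was called higher on Day42 against Day21.

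In the box H/ACA particle, 3 of 4 genes were called lower on Day42 against Day0, 2 against Day21 and none on Day21 against Day0 by edgeR (1 with an unadjusted p under 0.05), and none was called higher. Among all genes tested 23.4%, 19.7% and 1.18% were called lower, in the same order. The counts were 4, 4 and 1 without Day42 replicate 3 (25.9%, 22.3% and 6.69% of all genes). NHP2, a core RNA-binding protein of the particle, stood at 1335, 1099.8 and 1086 CPM on Day0, at 657, 972 and 892 CPM on Day21 and at 151, 129.8 and 167 CPM on Day42. The days did not overlap, and Day42 lay far below both earlier days. NHP2 fell by 2.49 ± 0.21 from Day21 (adjusted p = 0.000325 by edgeR) and 7.85-fold from Day0 (adjusted p = 0.000125 by edgeR), and both calls held in all 18 alternatives. NOP10, a small protein that bridges the enzyme to NHP2, stood at 2252, 2238 and 904 CPM on Day0, at 539, 1253 and 1413 CPM on Day21 and at 371, 287 and 273 CPM on Day42. Day0 and Day21 overlapped, with Day0 replicate 3 and Day21 replicate 1 the lowest of their days, and Day42 lay below both. NOP10 fell by 1.78 ± 0.44 from Day21 (adjusted p = 0.0186 by edgeR) and by 2.54 ± 0.45 from Day0 (adjusted p = 0.00388 by edgeR). The NOP10 call of Day42 against Day21 did not hold in 7 of 18 alternatives (range of adjusted p 0.0125 to 0.134), which include leaving out Day21 replicate 2 or 3 or Day42 replicate 2 (adjusted p = 0.0624, 0.0654 and 0.0504 by edgeR).

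GAR1, which helps the particle release its substrate, stood at 39.4, 30.0 and 34.7 CPM on Day0, at 16.1, 21.6 and 24.0 CPM on Day21 and at 1.79, 2.23 and 0 CPM on Day42. Day42 replicate 3 had 0 counts, which allows up to 0.142 CPM, and the other Day42 libraries also lay below Day21. GAR1 fell by 4.69 ± 1.55 from Day0 (adjusted p = 0.0474 by edgeR). The GAR1 call did not hold in 11 of 18 alternatives (range of adjusted p 0.000145 to 0.137), which include leaving out Day0 replicate 1, 2 or 3 or Day21 replicate 1, 2 or 3 or Day42 replicate 1 or 2 (adjusted p between 0.0706 and 0.106 by edgeR). DKC1, dyskerin, the pseudouridine synthase itself and named after its values were seen, stood at 168, 257 and 214 CPM on Day0, at 90.7, 87.9 and 89.9 CPM on Day21 and at 40.8, 46.4 and 211 CPM on Day42. Replicates 1 and 2 of Day42 lay below every Day21 library, and replicate 3 lay at the level of Day0. Its change from Day0 was −1.10 ± 0.59, adjusted p = 0.202 by edgeR, and it was called lower, at −2.29 (adjusted p = 0.000386 by edgeR), without Day42 replicate 3. From Day21 to Day42 it was 0.15 ± 0.59, adjusted p = 0.905 by edgeR, and without Day42 replicate 3 it was called lower, at −1.03 (adjusted p = 0.012 by edgeR), so its direction in that step rests on this library.

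None of the 8 small subunit assembly factors was called in any comparison by edgeR, although 1 had an unadjusted p under 0.05 in each comparison. In 7 of the 8 all Day21 libraries lay below all Day0 libraries (22.2% of all genes). In Day21 against Day0, Day42 against Day21 and Day42 against Day0, 3, 1 and 3 of the 8 were called lower once Day42 replicate 3 was left out (6.69%, 22.3% and 25.9% of all genes). Their median change from Day0 to Day42 was −2.66, from −4.95 to −0.23. The lower end, NOP14, rests on Day42 replicate 2, the only Day42 library with a count of it: without that library NOP14 and UTP20 had all remaining Day42 libraries at 0 and were called lower. UTP4, cirhin, a factor that joins the precursor during transcription, stood at 129.6, 187 and 137 CPM on Day0, at 71.9, 80.0 and 75.2 CPM on Day21 and at 139, 104 and 143 CPM on Day42. The Day21 libraries lay below all others, and Day42 overlapped Day0. The UTP4 change was −1.0 ± 0.25, adjusted p = 0.0568 by edgeR on Day21 against Day0, and 0.76 ± 0.24, adjusted p = 0.0501 by edgeR on Day42 against Day21. In 2 of 18 alternatives, both by limma, UTP4 was called higher on Day42 against Day21. NOB1, the nuclease that makes the last cut in the small subunit RNA, stood at 87.2, 82.1 and 89.1 CPM on Day0, at 35.9, 30.5 and 30.9 CPM on Day21 and at 13.0, 18.9 and 0.0475 CPM on Day42. Each day lay below the one before, but Day42 replicate 3 held 4 counts, and the change from Day0 to Day42 was −3.02 ± 1.34, adjusted p = 0.126 by edgeR, or −2.44 (adjusted p = 0.000392 by edgeR) without that library. Of the other 6, all but NOP14 and UTP20 had counts in replicates 1 and 2 of Day42, and NOP14, UTP20, RRP12, BYSL, UTP15 and TSR1 were all at 0 in replicate 3. NOP14 and UTP20, which scaffold the early particle, were at 0 in replicate 1 as well and at 1.93 and 2.09 CPM in replicate 2.

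Among 38 further small subunit factors, none was called on Day21 against Day0 by edgeR (9 had an unadjusted p under 0.05), 2 were called lower and 1 higher on Day42 against Day21, and 9 lower on Day42 against Day0. The lower calls are 2 and 9 of 38, where 19.7% and 23.4% of all genes tested were called lower. The higher call is 1 of 38, where 6.52% of all genes were called higher. The lower calls in the 3 comparisons were 10, 5 and 16 without Day42 replicate 3 (6.69%, 22.3% and 25.9% of all genes), and 3 were then higher in the second (11.1%). Their median change over the whole course was −1.06. PDCD11, a large scaffold of early cleavage, went from 62.9 ± 13.9 CPM on Day0 and 44.7 ± 10.6 CPM on Day21 to 6.82 ± 2.16 CPM on Day42 and fell by 2.71 ± 0.42 in the second step (adjusted p = 0.00307 by edgeR). EMG1, a methyltransferase of the small subunit RNA, fell by 4.16 ± 0.91 from 407 ± 101 CPM on Day0 to 22.7 ± 18.2 CPM on Day42 (adjusted p = 0.00928 by edgeR). DHX37, a helicase that frees the U3 particle, was called lower on Day42 than on Day0 (adjusted p = 0.0312 by edgeR), at 1.9, 1.14 and 6.10 CPM and 0.102, 0 and 0 CPM in the libraries of these days. The DHX37 call did not hold in 9 of 16 alternatives (range of adjusted p 1.7e-05 to 0.101), which include leaving out Day0 replicate 1, 2 or 3 or Day21 replicate 1, 2 or 3 (adjusted p between 0.0503 and 0.0857 by edgeR). WDR75, a factor of the same early complex as UTP4 and named after its values were seen, rose by 2.00 ± 0.30 from 39.4 ± 4.24 CPM to 157 ± 40 CPM (adjusted p = 0.00275 by edgeR). The PDCD11 calls, the EMG1 call against Day0 and this WDR75 call held in all 18.

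Of the 11 large subunit assembly factors, none was called on Day21 against Day0 by edgeR (3 had an unadjusted p under 0.05), 2 were called lower on Day42 against Day21 and 4 on Day42 against Day0. In these comparisons 1.18%, 19.7% and 23.4% of all genes tested were called lower. Without Day42 replicate 3 the counts were 4, 5 and 8 (6.69%, 22.3% and 25.9% of all genes). The medians of the 11 genes with all 9 libraries were −1.2, −1.42 and −2.84. PPAN, the homolog of a yeast factor of early large subunit particles, stood at 168, 123 and 141 CPM on Day0, at 49.2, 62.2 and 64.7 CPM on Day21 and at 11.3, 19.3 and 6.58 CPM on Day42. The days did not overlap. PPAN fell by 2.24 ± 0.42 from Day21 to Day42 (adjusted p = 0.0055 by edgeR) and 11.6-fold from Day0 (adjusted p = 0.000995 by edgeR), and both calls held in all 18 alternatives. It shares its strand with P2RY11 and the readthrough gene PPAN-P2RY11, which leaves its level uncertain. NOP16, a factor of early particles, stood at 782, 794 and 354 CPM on Day0, at 91.9, 161 and 176 CPM on Day21 and at 88.1, 53.4 and 18.7 CPM on Day42. Each day lay below the one before, with Day0 replicate 3 well under the other Day0 libraries. NOP16 fell by 3.59 ± 0.61 or 12.1-fold over the whole course (adjusted p = 0.00318 by edgeR), and its change on Day21 was −2.17 ± 0.58, adjusted p = 0.0734 by edgeR.

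MRTO4, which holds the place of a stalk protein in the nascent large subunit, stood at 191, 155 and 178 CPM on Day0, at 108, 115 and 118 CPM on Day21 and at 38.2, 30.8 and 77.3 CPM on Day42. Its days did not overlap. MRTO4 fell by 1.84 ± 0.36 from Day0 to Day42 (adjusted p = 0.00549 by edgeR) and by 1.22 ± 0.35 from Day21 (adjusted p = 0.0344 by edgeR). The MRTO4 call of Day42 against Day21 did not hold in 14 of 18 alternatives (range of adjusted p 0.000977 to 0.121), which include leaving out Day0 replicate 1, 2 or 3 or Day21 replicate 1, 2 or 3 or Day42 replicate 1 or 2 (adjusted p between 0.0524 and 0.121 by edgeR). NIP7, a factor of late large subunit RNA processing, stood at 149, 184 and 95.8 CPM on Day0, at 45.3, 49.9 and 55.0 CPM on Day21 and at 26.4, 40.1 and 83.9 CPM on Day42. Day21 lay below Day0, Day42 overlapped Day21, and Day42 replicate 3 was its highest. NIP7 fell by 1.51 ± 0.46 from Day0 (adjusted p = 0.035 by edgeR), with all 3 libraries lower. The NIP7 call did not hold in 12 of 18 alternatives (range of adjusted p 0.00223 to 0.113), which include leaving out Day0 replicate 1 or 2 or Day21 replicate 1, 2 or 3 or Day42 replicate 1 or 2 (adjusted p between 0.0618 and 0.113 by edgeR).

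The other 7 large subunit factors were called in no comparison by edgeR with all 9 libraries. Without Day42 replicate 3, PES1, WDR12, RRP1 and EBNA1BP2 were called lower on Day42 than on Day0, and without Day42 replicate 2, RRS1 and NOP2 were. BOP1, PES1 and WDR12 form 1 complex, the PeBoW complex, and were named after their values were seen. BOP1 stood at 27.3, 18.1 and 94.2 CPM on Day0, at 53.5, 32.5 and 18.2 CPM on Day21 and at 17.0, 9.71 and 51.5 CPM on Day42. PES1 stood at 47.2, 32.6 and 86.6 CPM on Day0, at 47.5, 57.4 and 41.9 CPM on Day21 and at 9.61, 14.2 and 80.8 CPM on Day42. In both, Day0 replicate 3 and Day42 replicate 3 were the highest of their days, the days overlapped, and the change from Day0 to Day42 did not pass (−0.84 ± 0.83 and −0.67 ± 0.78, adjusted p = 0.507 and 0.582 by edgeR). The BOP1 change was −1.80 (adjusted p = 0.1 by edgeR) and the PES1 change −2.23 (adjusted p = 0.00628 by edgeR) without Day42 replicate 3, and that of PES1 from Day21 was −2.03 (adjusted p = 0.0112 by edgeR). WDR12 stood at 135, 245 and 123 CPM on Day0, at 59.7, 73.9 and 67.6 CPM on Day21 and at 21.1, 24.7 and 0 CPM on Day42, with all Day42 libraries below those of Day21, and its change from Day0 was −3.46 ± 1.64, adjusted p = 0.149 by edgeR, or −2.88 (adjusted p = 0.000697 by edgeR) without Day42 replicate 3. EBNA1BP2, the partner of RRS1 homologs in early assembly, stood at 335 ± 94.5, 204 ± 47.6 and 222 ± 106 CPM on the 3 days. RRS1 and NOP2, a methyltransferase, were at 0 in replicates 1 and 3 of Day42, and RRP1 held 3 counts in replicate 3.

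Among 48 further large subunit factors, 1 was called lower on Day21 against Day0, 4 lower and 2 higher on Day42 against Day21, and 10 lower and 2 higher on Day42 against Day0, with a median of −1.01 over the whole course. Of all genes tested 1.18%, 19.7% and 23.4% were called lower. On Day42, 6.52% were called higher against Day21 and 8.82% against Day0. The counts of this list, lower and higher, are thus not above the share of all genes on Day42. The lower calls were 11, 4 and 18 without Day42 replicate 3 (6.69%, 22.3% and 25.9% of all genes). DDX18, an RNA helicase, stood at 886, 686 and 509 CPM on Day0, at 371, 565 and 569 CPM on Day21 and at 139, 186 and 96.2 CPM on Day42 and fell by 1.84 ± 0.32 in the second step (adjusted p = 0.00449 by edgeR). TMA16 fell by 1.98 ± 0.49 from Day0 to Day42 (adjusted p = 0.0156 by edgeR). The TMA16 call did not hold in 2 of 18 alternatives (range of adjusted p 0.00761 to 0.0594), which include leaving out Day0 replicate 2 (adjusted p = 0.0561 by edgeR). SENP3, a SUMO protease of the nucleolus, was called lower on Day42 (adjusted p = 0.0115 by edgeR, against Day21), but it never passed 1.27 CPM and was at 0 in all Day42 libraries, so no fold is given. The SENP3 call did not hold in 2 of 16 alternatives (range of adjusted p 7.53e-05 to 0.156), namely the replicate block and voom with sample quality weights. The 2 genes that rose, NMD3, the export adaptor of the large subunit, and SBDS, a factor of its last maturation step, were named after their values were seen. NMD3 rose by 1.15 ± 0.31 from 33.1 ± 4.52 CPM to 73.5 ± 7.57 CPM (adjusted p = 0.0226 by edgeR), and SBDS rose by 1.72 ± 0.33 from 79.5 ± 29.2 CPM to 261 ± 72.4 CPM (adjusted p = 0.00521 by edgeR). The NMD3 call did not hold in 4 of 18 alternatives (range of adjusted p 0.000515 to 0.0959), which include leaving out Day0 replicate 1 or 3 (adjusted p = 0.089 and 0.077 by edgeR). PAK1IP1, the gene called on Day21 and also named after its values were seen, fell by 1.82 ± 0.37 from 244 ± 101 CPM to 69.2 ± 10.7 CPM (adjusted p = 0.0446 by edgeR) and stood at 144 ± 44.2 CPM on Day42. The PAK1IP1 call did not hold in 10 of 18 alternatives (range of adjusted p 0.000134 to 0.179), which include leaving out Day0 replicate 1, 2 or 3 or Day21 replicate 1, 2 or 3 or Day42 replicate 2 (adjusted p between 0.0503 and 0.179 by edgeR).

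The RNA exosome trims ribosomal RNA precursors and many other RNAs. Of 14 genes of this complex and its cofactors, none was called on Day21 against Day0 by edgeR (1 had an unadjusted p under 0.05), 5 were called lower on Day42 against Day21 (19.7% of all genes) and 6 on Day42 against Day0 (23.4%). The core subunits EXOSC4, EXOSC3 and EXOSC2 were among them. EXOSC4 stood at 389.6, 319 and 262 CPM on Day0, at 191, 335 and 286 CPM on Day21 and at 39.4, 32.1 and 22.6 CPM on Day42. Its Day42 libraries lay below all others, and it fell by 3.11 ± 0.33 from Day21 (adjusted p = 0.00072 by edgeR). EXOSC3 fell by 1.81 ± 0.36 and EXOSC2 by 1.98 ± 0.52 in the same step (adjusted p = 0.00705 and 0.0241 by edgeR). The EXOSC2 call did not hold in 7 of 18 alternatives (range of adjusted p 0.0128 to 0.111), which include leaving out Day21 replicate 1 or 2 (adjusted p = 0.0866 and 0.0604 by edgeR). The EXOSC3 and EXOSC4 calls held in all 18 alternatives. Without Day42 replicate 3, 2 of the 14 genes were also called higher on Day42 against Day21 (11.1% of all genes). The median of the 14 genes was −0.29 from Day0 to Day21 and −1.47 from Day21 to Day42.

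Compared per length, in FPKM, NOP10, NHP2 and NPM1 stood highest on Day0 and Day21. NOP10 ranked 1 of 40 on each day, at 2393 ± 898, 1471 ± 548 and 688 ± 121 FPKM (SD, n = 3). NHP2 ranked 2, 2 and 4, at 563 ± 33.6, 416 ± 40.6 and 117 ± 9.38 FPKM. NPM1 ranked 3, 3 and 2, ending at 129.6 ± 6.67 FPKM. On Day42 the mean ± SD of NPM1, NOP58 (126 ± 32.0 FPKM) and NHP2 overlapped, so their order there is within their spread. LYAR went from rank 7 on Day0 to 25 on Day42, FBL from 14 to 29 and GPATCH4 from 12 to 21, while MYC went from 34 to 16 and UTP4 from 24 to 9. MYCN ranked 39 and UTP20, a very large scaffold protein, 40 on Day42.

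The spread between libraries was far wider on Day42 than before. The median coefficient of variation of the 40 genes came to 21.3% for Day0, 13.1% for Day21 and 86.5% for Day42. Replicate 3 was the highest Day42 library for 14 genes and the lowest for 20. It had 10 of the 40 genes at 0 (25%, against 51.4% of all genes tested), replicate 1 had 4 (10%, against 29.2%), and replicate 2 had none (25.8% of all genes tested were at 0). Members at 12 counts or fewer numbered 17 in replicate 3 and 5 in replicate 1. Ribosomal protein genes, whose products the pathway assembles, took 8.56% to 10.3% of counts on Day0, 6.41% to 7.82% on Day21 and 1.78% to 2.19% on Day42.

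Other marker lists followed different courses over the 3 days. For 8 proliferation genes the summed level ran from 1353 to 1912 CPM on Day0, from 1401 to 1687 CPM on Day21 and from 62.9 to 96.6 CPM on Day42. None of the 8 was called on Day21 against Day0 by edgeR (1 had an unadjusted p under 0.05). On Day42, 5 were called lower against Day21 and against Day0 (19.7% and 23.4% of all genes tested). The pluripotency sum, in contrast, was already lower on Day21. Of its 7 genes, 3 were called lower there (1.18% of all genes) and 7 on Day42 against Day0 (23.4%). Mesenchymal genes, a list of 5, summed to 10.7 to 18.6 CPM on Day0, 576 to 628 CPM on Day21 and 123 to 157 CPM on Day42. The part of cell cycling, of the mix of cells or of the lower number of genes in the Day42 libraries in the changes of the 40 genes was not tested.

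Calls were also counted by whether a window held the E-box, with no test of the difference. Of the 15 genes with CACGTG in a window, 7 were called lower on Day42 against Day0, and of the 19 with windows and no match 9 were (23.4% of all genes tested). The medians were −2.54 and −2.84. On Day21 against Day0 the counts were 0 of 15 and 2 of 19 (1.18% of all genes). On Day42 against Day21 they were 3 of 15 and 7 of 19 (19.7% of all genes). FBL and UTP4, whose windows are printed above, both hold the motif near the start, and on Day42 their changes from Day0 were −4.96 and −0.23 on the log2 scale.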

How the data were processed

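The deposited table gives, per the file headers, a raw count and an FPKM value, scaled for length and depth by the authors, per gene for 9 libraries, 3 per day. Per the labels, libraries came from about 10 ng of total RNA with a low-input kit. Per the submitters' processing notes, cutadapt 1.9, FastQC and build GRCh38 were used. Aligner, counter, strand setting and annotation remain not given in the sources used here. Coordinates are those of the deposited table, and all 40 members lay on the same chromosome and strand in GENCODE 29. With GENCODE 29, 5 members share their strand with another gene model (RRP12, UTP4, NOP2, RRS1, PPAN) and 14 overlap one on the other strand alone, so their counts are uncertain. NPM1, NOP56, NIP7, NCL, NHP2, PES1 and LYAR have pseudogene copies.

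Genes passing filterByExpr (20156) were scaled by TMM, and edgeR 4.0.16 (R 4.3.3) was fitted over the 9 libraries with 1 mean per day (6 residual degrees of freedom, median prior 2.42). The fit was tried on simulated counts with known changes on Day21 against Day0 and the same relative spread in all genes and libraries. That trial does not cover the uneven Day42 libraries. Depth was 58526466 to 69658328 counts, and limits cover counting error only. Of the symbols in the further lists, 2 were not matched and 3 were matched by gene ID. Alternatives were limma 3.58.1 on log2(FPKM + 1) and log2(FPKM + 0.1), DESeq2 1.42.0, no filter, other scalings, only the 2 days compared, a replicate block, leaving out each library, no fold threshold and voom with sample quality weights. In each role, values by library are given for up to 4 called members with the largest change, or where fewer than 2 were called the most expressed by FPKM, always with NCL, FBL, GPATCH4, MYC and MYCN. In each further list up to 3 genes follow the same rule. Members and lists were chosen with earlier results of these data known. Preparation, summaries and figures ran in Python 3.11.15 with numpy 2.4.6, pandas 2.3.3 and, for plots, matplotlib 3.10.9.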

Additional observations from a re-analysis of the deposited data

How the results depend on the processing

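A percentage in brackets is the share of all genes tested that was called the same way. Calls lower on Day21 against Day0 (2) numbered 0 with the replicate block (0.164%), 8 and 6 by limma on log2(FPKM + 1) and log2(FPKM + 0.1) (6.59% and 6.13%), 5 by DESeq2 (3.69%), 21 with only the 2 days compared (12.6%) and 20 by voom with sample quality weights (15.8%), which was chosen after seeing the data. Calls lower on Day42 against Day21 (10) numbered 5 with the block (8.95%). Those against Day0 (16) numbered 25 by voom (18.7%), 12 with the block (13.2%) and 11 with only the 2 days compared (18.5%). Calls higher on Day42 against Day21 (1) numbered 0 with the block (3.06%) and without a filter (2.58%), 4 by limma with either pseudocount (19.9% and 20.4%), and 2 with median-of-ratios scaling (6.77%) and by DESeq2 (5.39%). Calls higher on Day42 against Day0 (0) numbered 1 by limma with either pseudocount (22% and 22.7%). Leaving out 1 library at a time gave 0 to 16, 5 to 18 and 12 to 25 lower and 0 to 0, 0 to 2 and 0 to 0 higher in Day21 against Day0, Day42 against Day21 and Day42 against Day0. The cause was not tested. Calls in all 18 alternatives with a fold threshold were 0 of 2, 4 of 11 and 10 of 16.

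Replicate numbers did not pair the libraries: same-number correlations of deviations ran from −0.225 to 0.0266, 0 of 9 over 0.1, and the own number correlated best in 1 of 18 cases. The block lowered the count of calls as given above.

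Of 756 changes of the 40 genes per comparison over the alternatives, 5, 28 and 13 reversed their sign in Day21 against Day0, Day42 against Day21 and Day42 against Day0. Each was uncalled with all 9 libraries, and 1 was called once reversed: DKC1 was lower on Day42 than on Day21 without Day42 replicate 3 (adjusted p = 0.012 by edgeR). GNL3 and NIP7, which reversed in Day42 against Day21, were called in Day42 against Day0. In Day21 against Day0 these were BOP1 (0.12 with the replicate block, −0.90 to 0.61 leaving out 1 library) and PES1 (0.091 with the replicate block, 0.062 by voom, −0.45 to 0.30 leaving out 1 library).

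In Day42 against Day21, limma on log2(FPKM + 1) and log2(FPKM + 0.1) gave 0.28 and 0.29 for GNL3, 0.028 and 0.018 for BOP1, and the former 0.018 for UTP15. The replicate block gave −0.18 for DKC1 and −0.077 for NIP7, and upper-quartile scaling −0.0082 for DKC1, −0.030 for EBNA1BP2 and −0.15 for NIP7. Voom gave 0.058 for POLR1A, −0.95 for DKC1, −0.35 for EBNA1BP2 and −0.61 for NIP7. Leaving out 1 library gave −1.09 to 0.20 for POLR1A, −1.03 to 0.61 for DKC1, −1.51 to 0.12 for RRP12, −1.83 to 0.36 for UTP15, −1.37 to 0.13 for BOP1, −2.03 to 0.050 for PES1, −0.33 to 0.41 for EBNA1BP2 and −0.58 to 0.39 for NIP7.

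In Day42 against Day0, limma on log2(FPKM + 1) and log2(FPKM + 0.1) gave 0.50 and 0.51 for NOP56, 0.43 and 0.44 for NOP58, 0.45 and 0.47 for UTP4, and 0.054 and 0.055 for EBNA1BP2. Voom gave −0.72 for POLR1B. Leaving out 1 library gave −0.41 to 1.16 for POLR1B, −0.39 to 0.11 for NOP56, −0.65 to 0.15 for NOP58 and −1.80 to 0.19 for BOP1. Among named genes of the further lists, POLR1D in Day42 against Day21 gave 0.43 and 0.59 by limma, 0.0023 with median-of-ratios scaling, 0.020 by DESeq2 and −0.14 to 0.11 leaving out 1 library, and ODC1 there gave 0.32 and 0.33 by limma, 0.15 by voom and −0.49 to 0.15 leaving out 1 library. MAX in Day42 against Day0 gave −0.12 with upper-quartile scaling and −0.14 to 0.31 leaving out 1 library, and NME1 in Day21 against Day0 −0.33 to 0.0061 leaving out 1 library. Upper-quartile scaling moved the median of all genes on Day42 to −0.68 against Day21 and −0.70 against Day0, from −0.54 and −0.57, and that of the 40 genes to −1.47 and −2.62. For Day42 against Day21 the medians of the 40 and of all genes lay closer in other fits. They were −1.50 and −1.20 with the replicate block and −1.40 and −1.07 by voom. Over 34961 genes they were −1.31 and −0.99 without a filter and −1.26 and −0.94 by DESeq2. By limma on log2(FPKM + 1) they were −0.81 and 0.020, with 27 of 38 members negative. Against Day0 that fit had 32 of 38 negative.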

Other observations

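Small nucleolar RNA genes lie inside 7 of the 40 genes in GENCODE 29: 6 in GNL3, 5 in NOP56, 4 in NOP58, 3 in NCL and 2 each in DKC1, TSR1 and PPAN. Their host transcripts had a median change of −1.10 from Day0 to Day42, with 3 of 7 called lower, and the other genes −2.54, with 13 of 33 called lower (23.4% of all genes tested were). From Day0 to Day21 the medians were −1.25 and −1.08, and from Day21 to Day42 −0.35 and −1.42, with 2 of 7 and 8 of 33 called lower (19.7% of all genes). The difference between the 2 groups was not tested. TSR1 stood at 129.6, 131 and 155 CPM on Day0, at 42.6, 35.2 and 34.6 CPM on Day21 and at 9.79, 30.4 and 0 CPM on Day42, with every Day21 library below Day0 and 0 counts in Day42 replicate 3. It was called in no comparison by edgeR with all 9 libraries, and lower on Day21 and Day42 against Day0 without that library.

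UTP4 and NOB1, listed here under the small subunit, and NIP7, listed under the large subunit, lie within 624 kb of chromosome 16 (69131291 to 69754926 on GRCh38). From Day0 to Day42 UTP4 changed by −0.23 ± 0.24, NIP7 by −1.51 ± 0.46 and NOB1 by −3.02 ± 1.34, with adjusted p = 0.528, 0.035 and 0.126 by edgeR. NIP7 alone was called, in 6 of 18 alternatives as well, and the differences between the 3 genes were not tested.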
